A study of Homo sapiens with 9 samples.

Results

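The clustered protocadherins are neighbouring families of cell-surface adhesion proteins, alpha, beta and gamma, encoded side by side on the plus strand of human chromosome 5. They were found as the transcript clusters of the array, each a group of probe sets that stands for 1 locus, with any annotated symbol beginning with PCDHA, PCDHB or PCDHG. The rule found 20 of 28829 clusters: 1 alpha cluster that carries 15 symbols, 18 beta clusters with 1 symbol each, and 1 gamma cluster that carries 22 symbols. Values were present for 19 of these, since PCDHB4 had none on any array, and no 2 of the 19 held the same reading. RNA was measured in HEK 293, an established line derived from human embryonic kidney. The cells had been transiently transfected 72 h earlier with a plasmid for MBD-VP16 (3 arrays), a plasmid for Aire (3 arrays) or the empty PCMV vector (3 arrays). All 9 arrays therefore share the transfection, and a culture mixes cells that took up plasmid with cells that did not. A larger change in fewer cells and a smaller change in more cells cannot be told apart. MBD-VP16 is, by its name, a methyl-CpG-binding domain joined to the VP16 activation domain of a herpesvirus, and AIRE is the thymic regulator that broadens the range of self antigens expressed there. The labels name neither the species nor the extent of either construct. The replicates are described as biological, but how the cultures were separated is not given, so the p-values measure only the spread between these arrays.

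Most protocadherin promoters of these families, though not all, are switched on or left silent largely independently of their neighbours. Single neurons thus carry different combinations and recognise like cells by homophilic binding. Alpha and gamma genes join one of many variable first exons to a shared set of constant exons, whereas each beta gene is a single coding exon with no shared part. The silent promoters are known to carry DNA methylation, and the active ones to bind CTCF and cohesin at a conserved element just before the transcription start.

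Compared with vector, 16 of the 19 measured clusters rose with MBD-VP16 and none fell. Of all 25679 clusters with values, 9.89% were called in that comparison, 4.75% higher and 5.14% lower, a call being a limma adjusted p under 0.05. With Aire, 4 of the 19 rose and none fell, where 4.40% of all clusters were called, 1.58% higher and 2.82% lower. All 4 Aire calls were beta genes (PCDHB2, PCDHB7, PCDHB11 and PCDHB13), and each was also called with MBD-VP16. The remaining 12 MBD-VP16 calls had no Aire call, and PCDHB1, PCDHB3 and PCDHB14 were called in neither comparison. The comparisons share the 3 vector arrays, so they are not independent of each other. All measured levels below are deposited RMA values on the log2 scale. Levels of different clusters were not set against each other, except that low ones are set beside the lower quartile of the array.

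Before the values, the stretches just upstream of the transcription start show what the beta promoters have in common. RefSeq windows of GRCh38.p14, running from 250 bases before to 50 bases after each start, were at hand for 14 of the 18 beta genes, and not used for PCDHB6, PCDHB11, PCDHB17 and PCDHB18. The 9-base motif GGTGGCGCT lay in 13 of the 14 beta windows, always on the gene's own strand when read 5′ to 3′. Counting both strands it lay in 0 of 13 alpha windows, in 0 of 25 gamma windows (20 genes) and in 176 of all 35116 windows, or 0.501%. The letters of this motif were chosen after the beta windows had been read, so its count among them is a description. It contains the shorter motif CGCT, which overlaps it at its 3′ end and is common: CGCT lay in 14 of 14 beta, 12 of 13 alpha and 25 of 25 gamma windows, and in 70.0% of all windows on either strand. The 120 bases before the start are shown for 7 genes, all on the plus strand, with GGTGGCGCT in capitals. In PCDHB1, the 1 beta gene whose window holds no exact match to it, CGCT is in capitals. PCDHB2 (chr5:141094495-141094614), PCDHB7 (chr5:141172524-141172643), PCDHB16 (chr5:141182267-141182386) and PCDHB13 (chr5:141213799-141213918) are shown because they rose with MBD-VP16 whichever array was left out. PCDHB1 (chr5:141051254-141051373) and PCDHB14 (chr5:141223223-141223342) are shown because they were not called, and PCDHB8 (chr5:141177670-141177789) because of its likeness to PCDHB13.
PCDHB2: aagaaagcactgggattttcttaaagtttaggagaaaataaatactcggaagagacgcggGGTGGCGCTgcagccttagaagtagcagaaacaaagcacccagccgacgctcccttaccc
PCDHB7: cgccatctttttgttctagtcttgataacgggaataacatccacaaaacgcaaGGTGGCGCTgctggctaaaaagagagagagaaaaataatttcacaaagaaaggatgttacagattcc
PCDHB16: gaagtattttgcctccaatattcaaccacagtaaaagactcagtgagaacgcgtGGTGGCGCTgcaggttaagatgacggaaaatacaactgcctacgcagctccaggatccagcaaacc
PCDHB13: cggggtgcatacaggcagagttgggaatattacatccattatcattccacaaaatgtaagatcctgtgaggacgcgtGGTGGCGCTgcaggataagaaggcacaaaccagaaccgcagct
PCDHB8: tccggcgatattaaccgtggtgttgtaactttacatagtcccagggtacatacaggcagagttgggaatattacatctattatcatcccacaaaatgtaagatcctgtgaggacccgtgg
PCDHB1: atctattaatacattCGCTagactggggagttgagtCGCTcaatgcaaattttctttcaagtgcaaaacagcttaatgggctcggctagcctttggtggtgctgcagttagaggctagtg
PCDHB14: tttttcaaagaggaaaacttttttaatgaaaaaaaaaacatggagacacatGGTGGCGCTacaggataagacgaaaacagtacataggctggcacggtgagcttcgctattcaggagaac

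In PCDHB2, PCDHB7, PCDHB16, PCDHB13 and PCDHB14 the first base of the motif stood at positions -60, -67, -66, -43 and -69 from the start. PCDHB8 has no capitals in its 120 bases because its copy straddles the start, with the first base at -2. Among the other beta genes it stood at -69 in PCDHB3, -84 in PCDHB4, -16 in PCDHB5, -76 in PCDHB9, -43 in PCDHB10, -65 in PCDHB12 and -70 in PCDHB15. PCDHB8 and PCDHB13 shared an unbroken run of 55 bases, the longest among the 91 pairs of beta windows, where the median pair shared 13 bases. Of the 12 genes with both the motif and values, 10 rose with MBD-VP16, while PCDHB3 and PCDHB14 carry it and did not pass. Whether the motif goes with a call cannot be judged here, because only PCDHB1 had a window and values without it. PCDHB1 lacked both an exact match and a call, though its shown bases hold ggtggtgct, with t in place of the first c. A match of letters is a description and shows neither binding nor use.

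**Figure D1:**
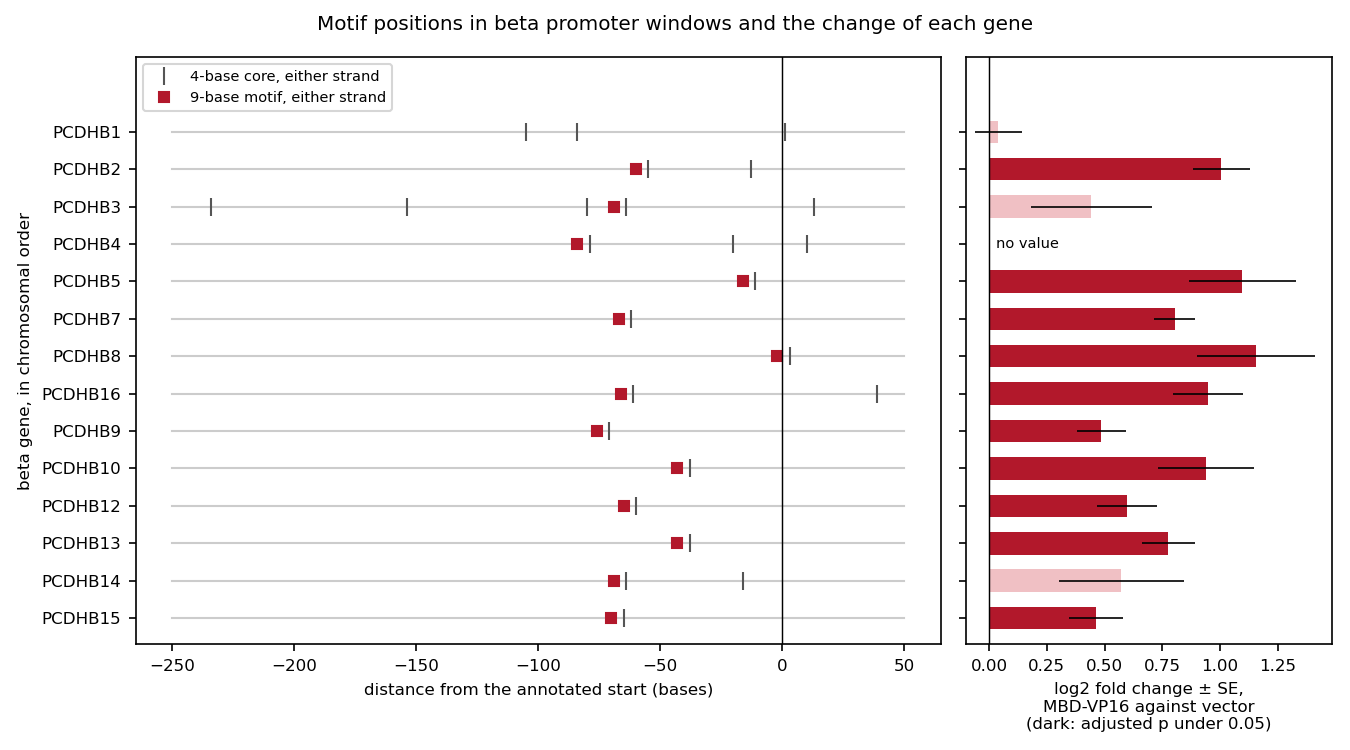
Left, first base of the 9-base motif (squares) and of its 4-base core (ticks) on either strand of the RefSeq windows of 14 beta genes, by distance in bases from the annotated start; right, log2 fold change of MBD-VP16 against vector (bars, ± SE, dark where called, none for PCDHB4). The 9-base motif begins between -84 and -2 in 13 genes, called and uncalled, and PCDHB1 has no exact match.

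CpG pairs, the sites that DNA methylation marks and that methyl-CpG-binding domains read, were sparse in the beta windows. They numbered 5 to 12 per 300-base window with a median of 7.5, against a median of 14 over all windows (quartiles 4 and 28). Alpha windows held a median of 7 and gamma windows a median of 10. Across the 13 beta genes with both a window and values, the CpG count and the log2 fold change had a Spearman rho of 0.13 with MBD-VP16 and 0.30 with Aire. These genes share their locus, their arrays and, in part, their sequence, so the coefficients only describe them. The methylation of these windows in the cells used was not measured here.

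With MBD-VP16 14 of the 17 measured beta genes were called higher, and so were alpha and gamma, the only other members. The beta genes had a median log2 fold change against vector of 0.78, ranging between 0.04 and 1.16. The median of all clusters was 0.00333, and 50.8% of all clusters lay above 0. In 14 of the 17 all 3 MBD-VP16 arrays stood above all 3 vector arrays, a separation seen in 13.2% of all clusters in that direction. On single arrays the median beta cluster stood 0.89, 0.64 and 0.78 above its vector mean with MBD-VP16, and 0.36, 0.26 and 0.40 above it with Aire. On the vector arrays it stood at -0.02, -0.04 and 0.00. Every MBD-VP16 and every Aire array thus lay above every vector array for the beta genes as a group.

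**Figure D2:**
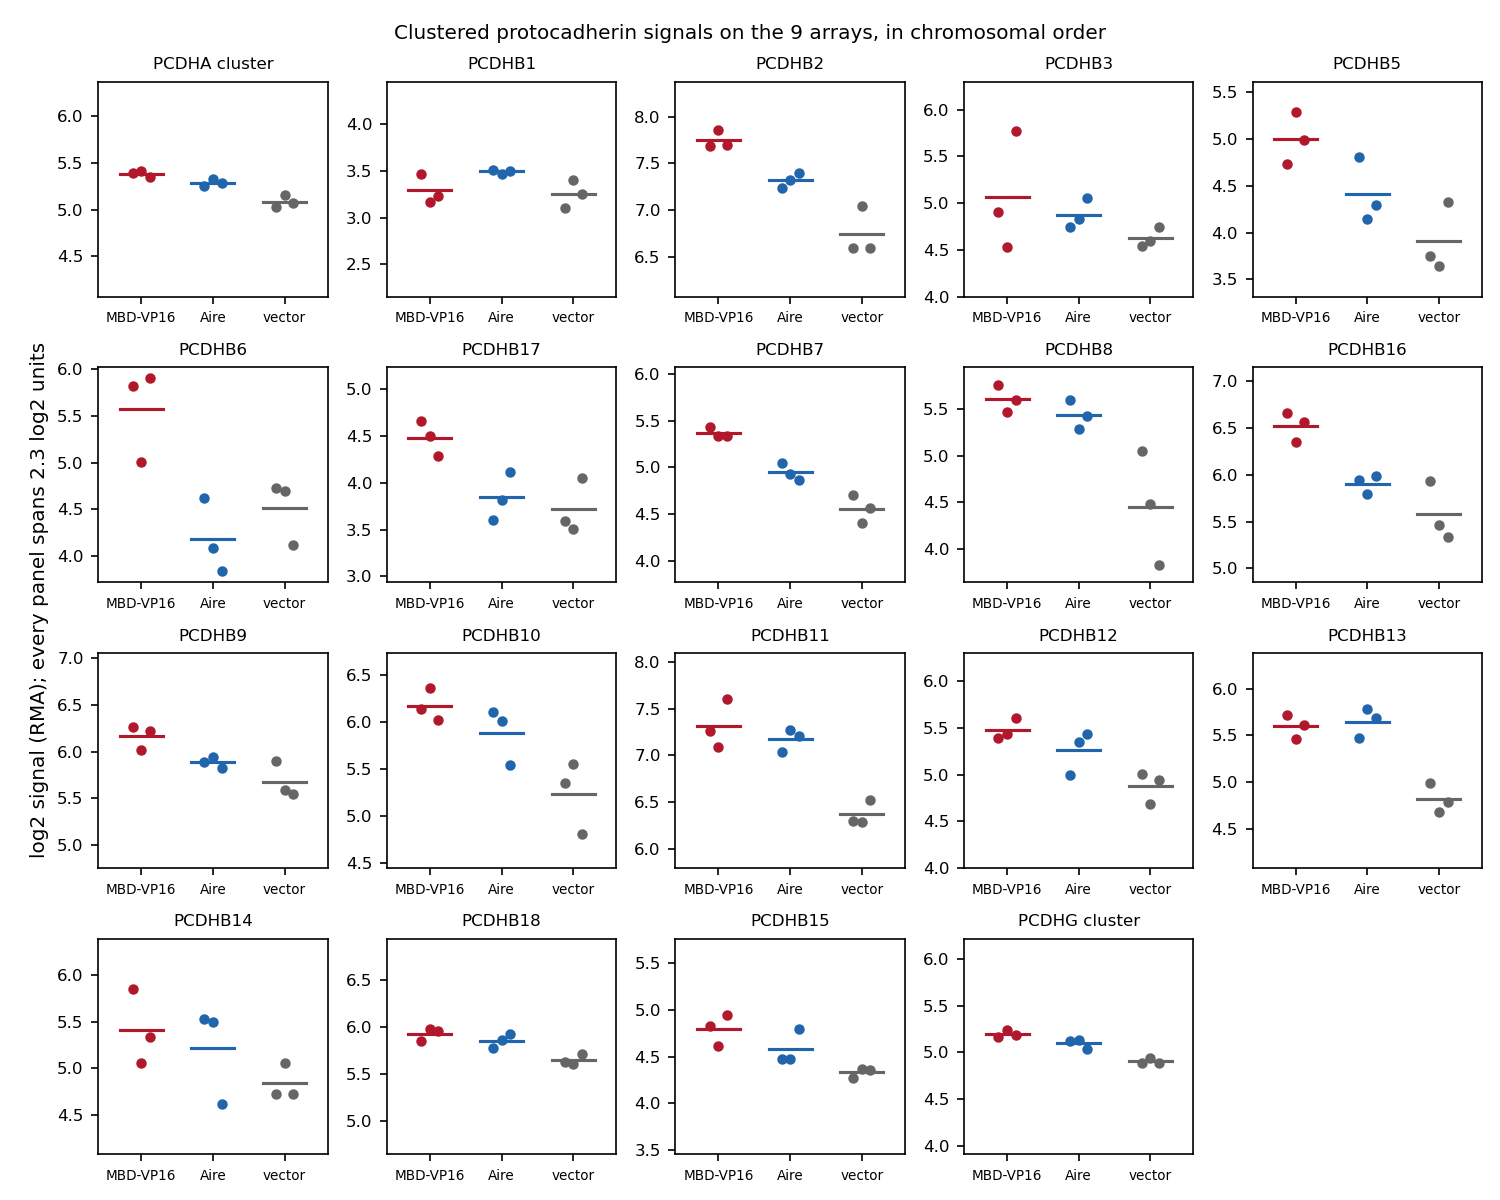
Deposited log2 level of each measured protocadherin cluster (1 panel each, in chromosome order, all panels of equal height in log2 units) on the 3 MBD-VP16, 3 Aire and 3 vector arrays (points) with the group mean (line). The 3 MBD-VP16 points stand above the 3 vector points in 16 of 19 clusters, the 3 Aire points in 10 of 19.

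PCDHB2, a beta gene near the start of the array (bases 140474219 to 140476964 of chromosome 5 in the deposited annotation, whose build is not named), read 7.69, 7.86 and 7.70 with MBD-VP16. It read 7.24, 7.32 and 7.40 with Aire and 6.60, 7.04 and 6.59 with vector. The 3 groups did not overlap, with MBD-VP16 highest and vector lowest. Its log2 fold change against vector was 1.01 ± 0.12 (SE) with MBD-VP16 (limma adjusted p = 0.00148) and 0.58 ± 0.12 with Aire (adjusted p = 0.0363). PCDHB7 (bases 140552243 to 140555964), another single-exon adhesion protein, had the smallest MBD-VP16 p of the family. It read 5.43, 5.33 and 5.33 with MBD-VP16, 5.05, 4.93 and 4.87 with Aire, and 4.70, 4.41 and 4.57 with vector. Here too the 3 groups were stacked without overlap. The difference from vector was 0.80 ± 0.09 with MBD-VP16 (adjusted p = 0.000886) and 0.39 ± 0.09 with Aire (adjusted p = 0.0453).

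PCDHB13 (bases 140593509 to 140598551) rose with both constructs. Its levels were 5.72, 5.46 and 5.61 with MBD-VP16, 5.47, 5.78 and 5.69 with Aire, and 4.99, 4.68 and 4.79 with vector. The MBD-VP16 and Aire arrays all cleared the vector arrays and overlapped each other. The log2 fold change against vector was 0.78 ± 0.11 with MBD-VP16 (adjusted p = 0.00381) and 0.83 ± 0.11 with Aire (adjusted p = 0.00862). PCDHB11 (bases 140579289 to 140582620) had the same shape, with 7.26, 7.09 and 7.60 with MBD-VP16, 7.04, 7.27 and 7.21 with Aire, and 6.30, 6.29 and 6.52 with vector. It stood 0.95 ± 0.13 above vector with MBD-VP16 (adjusted p = 0.00307) and 0.80 ± 0.13 with Aire (adjusted p = 0.0158). Again neither the MBD-VP16 nor the Aire arrays overlapped vector, and they overlapped each other.

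PCDHB16 (bases 140560980 to 140565984) differed from these in that its Aire arrays overlapped the vector arrays. It read 6.66, 6.35 and 6.56 with MBD-VP16, 5.94, 5.79 and 5.99 with Aire, and 5.93, 5.46 and 5.34 with vector. The difference from vector was 0.95 ± 0.15 with MBD-VP16 (adjusted p = 0.00569) and 0.33 ± 0.15 with Aire (adjusted p = 0.265). PCDHB2, PCDHB7, PCDHB11, PCDHB13 and PCDHB16 were the 5 members whose MBD-VP16 call held whichever of the 9 arrays was left out. The other 11 calls were lost without at least 1 array, and the count of calls among the 19 fell to 9, 8 and 13 without vector replicates 1, 2 and 3, and to 8, 8 and 7 without MBD-VP16 replicates 1, 2 and 3. Centring the arrays on their medians left 10 of the 16 calls, with alpha, gamma, PCDHB6, PCDHB9, PCDHB15 and PCDHB18 lost. A fit of the MBD-VP16 and vector arrays alone also left 10, with PCDHB8 lost in place of PCDHB15. The medians that centring removes were 6.21, 6.23 and 6.21 with MBD-VP16, 6.18, 6.18 and 6.19 with Aire, and 6.11, 6.16 and 6.16 with vector.

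PCDHB8 (bases 140557430 to 140560021) had the largest MBD-VP16 fold change of the family. Its levels were 5.76, 5.47 and 5.60 with MBD-VP16, 5.59, 5.29 and 5.42 with Aire, and 5.05, 4.48 and 3.83 with vector. The vector arrays were the spread-out ones, yet all lay below every MBD-VP16 and Aire array. The difference from vector was 1.16 ± 0.26 with MBD-VP16 (adjusted p = 0.0233), and with Aire it was 0.98 ± 0.26, which did not pass (adjusted p = 0.0685). PCDHB5 (bases 140514800 to 140517712) read 4.73, 5.29 and 4.99 with MBD-VP16, 4.81, 4.15 and 4.29 with Aire, and 3.75, 3.64 and 4.33 with vector. Only its MBD-VP16 arrays stood clear of vector, by 1.10 ± 0.23 (adjusted p = 0.0191). PCDHB10 (bases 140571942 to 140575215) read 6.14, 6.37 and 6.02 with MBD-VP16, 6.11, 6.01 and 5.54 with Aire, and 5.35, 5.55 and 4.81 with vector. It stood 0.94 ± 0.21 above vector with MBD-VP16 (adjusted p = 0.0237), and with Aire 0.65 ± 0.21 (adjusted p = 0.121).

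Of the other called beta genes, PCDHB9, PCDHB12 and PCDHB15 had MBD-VP16 differences from vector of 0.49, 0.60 and 0.46, with adjusted p of 0.0228, 0.0227 and 0.0374. All 3 had MBD-VP16 arrays clear of the vector arrays. PCDHB17 and PCDHB18 are named as pseudogenes by their present symbols, PCDHB17P and PCDHB18P. PCDHB17 read 4.66, 4.50 and 4.29 with MBD-VP16, 3.60, 3.82 and 4.12 with Aire, and 3.59, 3.51 and 4.05 with vector. PCDHB18 read 5.85, 5.98 and 5.96 with MBD-VP16, 5.78, 5.86 and 5.93 with Aire, and 5.63, 5.61 and 5.71 with vector. Their MBD-VP16 arrays stood above every vector array, and both were called, at 0.77 ± 0.18 (adjusted p = 0.0277) and 0.28 ± 0.07 (adjusted p = 0.0396). The authors' deposited table gives these 2 pseudogenes adjusted p-values of 0.064 and 0.131 in that comparison, above the threshold used here. Neighbouring beta genes are close relatives in sequence. The deposited annotation gives all 20 clusters the same cross-hybridisation type, but how far related transcripts bound each other's probes was not tested.

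PCDHB1, the beta gene closest to the alpha cluster (bases 140430961 to 140433547), was not called with MBD-VP16. It read 3.47, 3.17 and 3.23 with MBD-VP16, 3.51, 3.47 and 3.50 with Aire, and 3.10, 3.40 and 3.25 with vector. All these readings are low, below the lower quartile of their arrays (4.62 to 4.76). The MBD-VP16 and vector arrays overlapped, with a difference of 0.04 ± 0.10 (adjusted p = 0.856), whose sign turned without vector replicate 1 (-0.04) or without MBD-VP16 replicate 1 (-0.05) and with centred arrays (-0.03). PCDHB3 and PCDHB14 were uneven among replicates. PCDHB3 read 4.90, 4.53 and 5.77 with MBD-VP16, 4.74, 4.83 and 5.05 with Aire, and 4.54, 4.59 and 4.74 with vector. PCDHB14 read 5.85, 5.06 and 5.33 with MBD-VP16, 5.53, 5.50 and 4.62 with Aire, and 4.73, 5.06 and 4.73 with vector. Their MBD-VP16 differences of 0.44 ± 0.26 (PCDHB3, adjusted p = 0.345) and 0.57 ± 0.27 (PCDHB14, adjusted p = 0.230) did not pass. Among the called genes, the vector means of PCDHB5, PCDHB6, PCDHB7, PCDHB8, PCDHB15 and PCDHB17 also lay below the lower quartile of every vector array.

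The alpha and gamma clusters each average probes over many alternative first exons and the shared exons, so single isoforms were not resolved. The alpha cluster (bases 140165876 to 140391932) read 5.39, 5.41 and 5.35 with MBD-VP16, 5.25, 5.33 and 5.28 with Aire, and 5.03, 5.16 and 5.07 with vector. The gamma cluster (bases 140710204 to 140892546) read 5.16, 5.24 and 5.19 with MBD-VP16, 5.12, 5.13 and 5.04 with Aire, and 4.89, 4.94 and 4.89 with vector. In both, the 3 groups were stacked without overlap, MBD-VP16 highest and vector lowest. With MBD-VP16 alpha rose by 0.30 ± 0.06 (adjusted p = 0.0208) and gamma by 0.29 ± 0.06 (adjusted p = 0.0194), both smaller than the beta median of 0.78. With Aire the differences of 0.20 ± 0.06 for alpha (adjusted p = 0.119) and 0.19 ± 0.06 for gamma (adjusted p = 0.122) did not pass. Both MBD-VP16 calls were lost with centred arrays, with an intensity trend and in the fit of the MBD-VP16 and vector arrays alone. Omitting vector replicate 1 or any 1 MBD-VP16 array ended the alpha call as well, and omitting MBD-VP16 replicate 2 or 3 ended the gamma call. Whether alpha and gamma changed less than beta was not tested, since each is a single reading over a different set of probes.

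**Figure D3:**
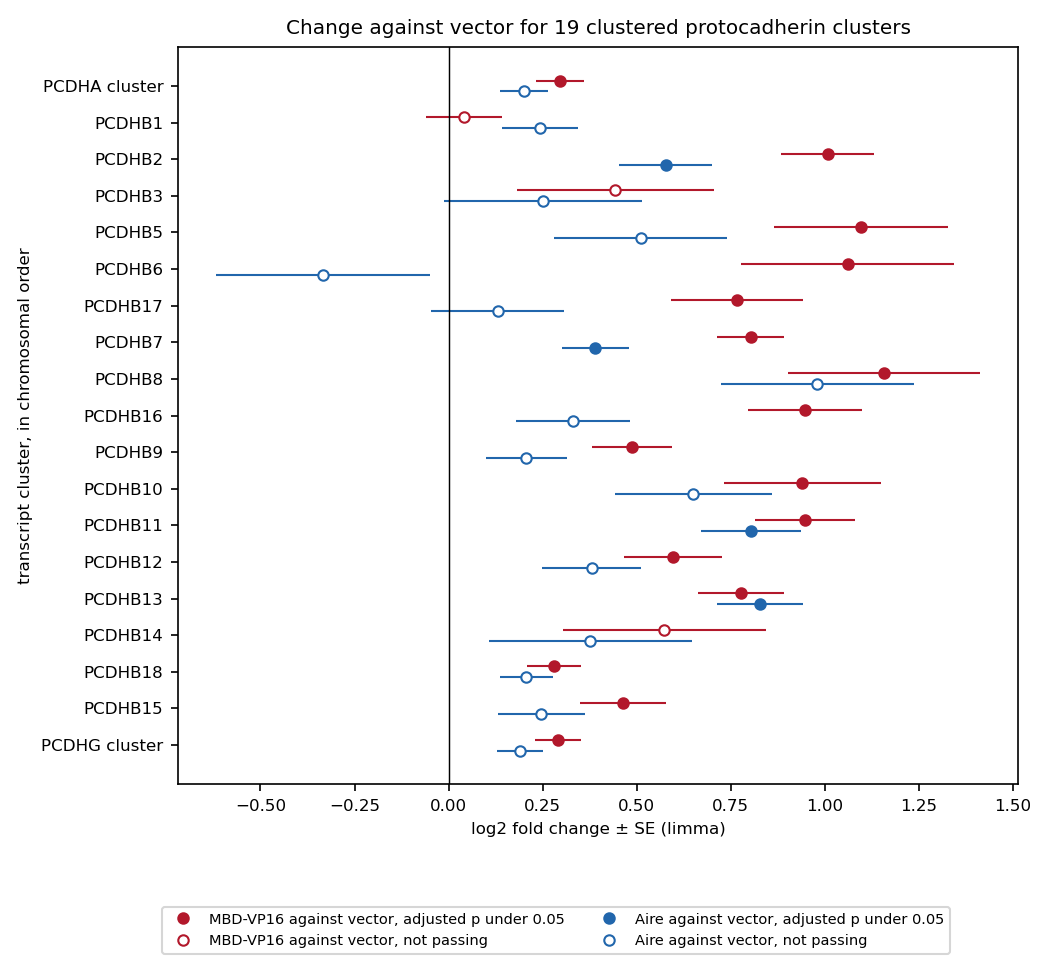
Log2 fold change against vector of each measured cluster in chromosome order, with MBD-VP16 and Aire drawn separately, bars for 1 SE and calls marked. With MBD-VP16 every value lies above 0 and with Aire every value except that of PCDHB6 does; the beta medians are 0.78 with MBD-VP16 and 0.38 with Aire.

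With Aire the beta genes had a median log2 fold change of 0.38 against vector, where all clusters had 0.03. Of the 19 clusters 18 lay above 0 (55.8% of all clusters did), 11 had an unadjusted p under 0.05 (20.2% of all clusters, either direction), and in 10 the Aire arrays all stood above the vector arrays (12.3% of all clusters). The PCDHB13 call held whichever array was left out. The PCDHB11 call was lost without vector replicate 2, Aire replicate 2 or Aire replicate 3. The PCDHB2 and PCDHB7 calls were each lost without any 1 of 8 arrays, the exceptions being vector replicate 2 for PCDHB2 and vector replicate 1 for PCDHB7. The PCDHB7 call was also lost with quantile-normalized arrays, with centred arrays and with an intensity trend in limma. Leaving out 1 array gave 1 to 4 calls among the 19, and a fit of the Aire and vector arrays alone gave 2, without PCDHB2 and PCDHB7.

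Set directly against Aire, MBD-VP16 gave a higher mean in 17 of the 19 clusters and 1 call, where 1.88% of all clusters were called, 1.80% higher and 0.074% lower, and 41.8% lay above 0. In 8 of the 19 the MBD-VP16 arrays all stood above the Aire arrays, against 8.41% of all clusters (10.2% had all MBD-VP16 arrays below), and in alpha, PCDHB2, PCDHB7 and gamma all 3 groups were stacked without overlap. The call was PCDHB6 (bases 140529839 to 140532868), a beta gene that read 5.82, 5.01 and 5.90 with MBD-VP16, 4.62, 4.09 and 3.84 with Aire, and 4.73, 4.70 and 4.12 with vector. Its MBD-VP16 arrays stood above all 6 others, while its Aire arrays spread through and below the vector arrays. PCDHB6 was 1.39 ± 0.28 higher with MBD-VP16 than with Aire (adjusted p = 0.0467) and 1.06 ± 0.28 higher than with vector (adjusted p = 0.0488). With Aire it differed from vector by -0.33 ± 0.28 (adjusted p = 0.560). Both PCDHB6 calls were lost without any 1 of the vector arrays, Aire replicate 2 or 3, or MBD-VP16 replicate 1 or 3, and also with quantile-normalized arrays, with centred arrays and in fits of only the groups compared.

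Other members with MBD-VP16 above Aire did not pass in the fit used here. The nearest was PCDHB7, at 0.41 ± 0.09 (adjusted p = 0.0622), followed by PCDHB16 at 0.62 ± 0.15 (adjusted p = 0.108). In that comparison the authors' deposited table gives adjusted p-values of 0.0271 for PCDHB7, 0.0295 for PCDHB6 and 0.0959 for PCDHB16, so PCDHB7 passes there. The 2 members with a lower MBD-VP16 mean than Aire mean were PCDHB13, at -0.05 ± 0.11, and PCDHB1, at -0.20 ± 0.10, and neither passed.

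The beta genes were also taken in their order along the chromosome. Over the 17 measured beta genes taken by start position, Spearman's rho between order and log2 fold change was -0.26 with MBD-VP16 and 0.10 with Aire. These points share their arrays and part of their sequence and are given as a description. Genes called with MBD-VP16 ran from PCDHB2 to PCDHB15, with the uncalled PCDHB3 and PCDHB14 among them and PCDHB1 at the alpha end. The genes also called with Aire were spread along this run, as PCDHB2, PCDHB7, PCDHB11 and PCDHB13. The measured genes between them that were not called with Aire had differences from -0.33 in PCDHB6 to 0.98 in PCDHB8, which was the largest Aire value of the family.

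Genes that flank the protocadherin arrays on chromosome 5q31 had shares of calls near those of all clusters. Of 23 measured neighbours 1 rose and 1 fell with MBD-VP16 (4.75% and 5.14% of all clusters) and 1 rose with Aire (1.58% of all clusters), with medians of -0.10 and -0.05. NDUFA2, a subunit of mitochondrial complex I, read 10.11, 10.18 and 10.15 with MBD-VP16, 10.14, 10.19 and 10.06 with Aire, and 9.81, 9.84 and 9.80 with vector. It was higher than vector with both constructs and without overlap, by 0.33 with MBD-VP16 (adjusted p = 0.0122) and 0.31 with Aire (adjusted p = 0.0287). RNF14, a ubiquitin ligase that binds the androgen receptor, fell by 0.32 with MBD-VP16 (adjusted p = 0.0120). TAF7, a general transcription factor subunit encoded between the beta and gamma genes, differed by -0.20 with MBD-VP16 (adjusted p = 0.128) and -0.19 with Aire (adjusted p = 0.204). SLC25A2, a mitochondrial ornithine carrier encoded in the same interval, differed by 0.02 with MBD-VP16 (adjusted p = 0.933) and -0.09 with Aire (adjusted p = 0.743).

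The non-clustered protocadherins are relatives each encoded as a separate gene. Of 10 measured, 1 rose with MBD-VP16 (4.75% of all clusters) and 2 with Aire (1.58% of all clusters), none fell, and the medians were 0.14 and 0.13. PCDH1 and PCDH12, neither of them called, were also counted among the 5q31 neighbours. PCDH18, an adhesion protein of the delta group, read 5.40, 5.56 and 5.65 with MBD-VP16, 5.59, 5.78 and 5.57 with Aire, and 5.09, 4.84 and 5.18 with vector. It rose in both, by 0.50 with MBD-VP16 (adjusted p = 0.0228) and 0.61 with Aire (adjusted p = 0.0209). PCDH20, another of these adhesion proteins, rose by 0.50 with Aire (adjusted p = 0.0497) and differed by 0.40 with MBD-VP16 (adjusted p = 0.0627). Whether the clustered and non-clustered families differed was not tested.

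Among 23 classical cadherins and catenins, the calcium-dependent adhesion proteins of cell junctions and their cytoplasmic partners, 3 rose with MBD-VP16 (4.75% of all clusters), none rose with Aire (1.58% of all clusters) and none fell in either. With Aire 4 of the 23 had an unadjusted p under 0.05, against 20.2% of all clusters. CDH1, or E-cadherin, whose promoter is a textbook target of methylation in carcinomas, read 6.21, 6.03 and 6.20 with MBD-VP16, 4.87, 5.03 and 5.32 with Aire, and 4.91, 5.04 and 4.58 with vector. Its MBD-VP16 arrays stood far above all others, by 1.30 against vector (adjusted p = 0.000872) and 1.07 against Aire (adjusted p = 0.00477), while Aire and vector overlapped. CTNND1, the p120 catenin that stabilises cadherins at the membrane, rose by 0.32 with MBD-VP16 (adjusted p = 0.0166), and P-cadherin CDH3 by 0.42 (adjusted p = 0.0197). The list's medians were 0.04 with MBD-VP16 and 0.03 with Aire.

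Genes that act on protocadherin promoters include CTCF, cohesin and its loaders, DNA methyltransferases and silencing factors. Of 23 measured, 2 fell with MBD-VP16 (5.14% of all clusters) and 1 with Aire (2.82% of all clusters), and none rose in either (4.75% and 1.58% of all clusters). The medians were -0.10 with MBD-VP16 and -0.02 with Aire. SMC3, a core cohesin ring subunit, read 10.07, 9.96 and 9.99 with MBD-VP16, 10.09, 10.08 and 10.08 with Aire, and 10.40, 10.32 and 10.36 with vector. It fell by 0.35 with MBD-VP16 (adjusted p = 0.00836) and by 0.28 with Aire (adjusted p = 0.0409), and neither group overlapped vector. STAG1, a cohesin accessory subunit, fell by 0.54 with MBD-VP16 (adjusted p = 0.0120) and differed by -0.37 with Aire (adjusted p = 0.0801). CTCF, the insulator protein that binds the promoters, averaged 8.69 with MBD-VP16, 8.73 with Aire and 8.66 with vector (adjusted p = 0.797 with MBD-VP16). SMCHD1, a silencer of these clusters, averaged 9.14 with MBD-VP16, 9.26 with Aire and 9.41 with vector (adjusted p = 0.0621 with MBD-VP16). The maintenance methyltransferase DNMT1 averaged 9.30 with MBD-VP16, 9.33 with Aire and 9.40 with vector. The de novo enzyme DNMT3A averaged 6.60 with MBD-VP16, 6.60 with Aire and 6.45 with vector, and DNMT3B averaged 7.17 with MBD-VP16, 7.02 with Aire and 7.10 with vector. None of the 3 methyltransferases passed in either comparison.

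Partners and processing enzymes of protocadherins, such as the ADAM10 and gamma-secretase proteases that cleave them and the WAVE complex that their tails recruit, gave 2 higher calls of 19 with MBD-VP16 (4.75% of all clusters), none with Aire (1.58% of all clusters) and no lower call. With Aire 3 of the 19 had an unadjusted p under 0.05, against 20.2% of all clusters. APH1B, a gamma-secretase subunit, read 6.56, 6.44 and 6.66 with MBD-VP16, 5.96, 5.98 and 6.0 with Aire, and 5.90, 5.17 and 5.78 with vector. It rose by 0.94 with MBD-VP16 (adjusted p = 0.00923), and its Aire arrays also stood above vector without passing (0.36, adjusted p = 0.265). BRK1, a small subunit of the WAVE complex, rose by 0.36 with MBD-VP16 (adjusted p = 0.0395). The list's medians were 0.04 with MBD-VP16 and 0.06 with Aire.

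**Figure D4:**
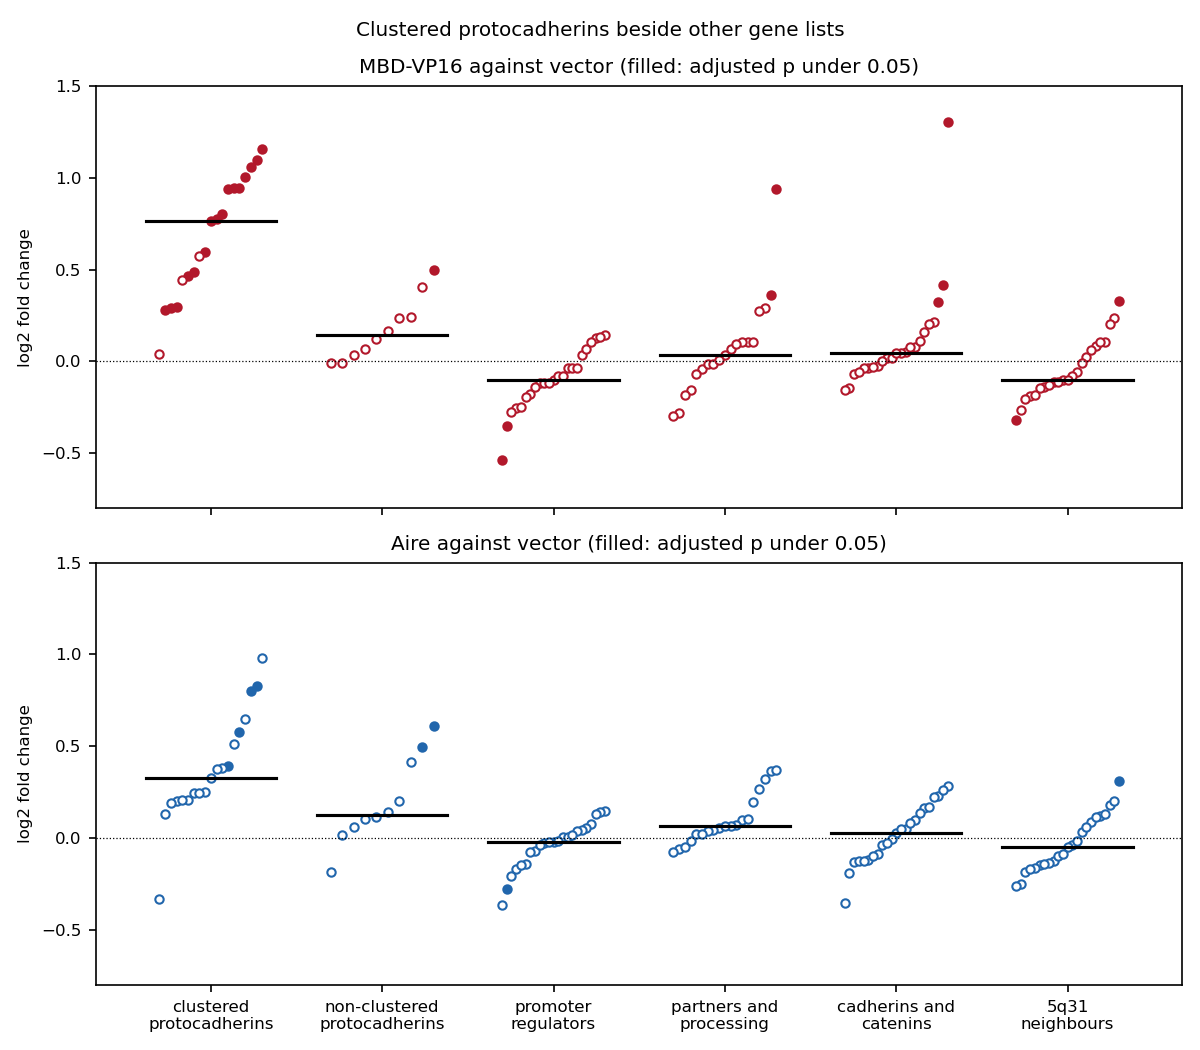
Log2 fold change against vector of the 19 clustered protocadherin clusters and of the measured genes of 5 other lists, with MBD-VP16 above and Aire below, filled points for calls and a line at each median. PCDH1 and PCDH12 are drawn both among the non-clustered protocadherins and among the 5q31 neighbours. The clustered protocadherins have medians of 0.77 with MBD-VP16 and 0.33 with Aire, while the 5 lists have medians between -0.10 and 0.14.

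The label checks and markers touch these results as follows. The cluster of MBD1, a gene for a methyl-CpG-binding protein, read 10.12, 9.91 and 9.86 with MBD-VP16, 8.24, 8.0 and 7.72 with Aire, and 8.49, 7.55 and 8.52 with vector (1.78 against vector, adjusted p = 0.00295). The AIRE cluster read 6.66, 6.57 and 6.76 with Aire, against 6.32, 6.52 and 6.46 with vector, a difference of 0.23 that did not pass (adjusted p = 0.213), so it does not check the Aire label. Keratin KRT8, known from HEK 293, averaged 10.03 with MBD-VP16, 9.98 with Aire and 10.1 with vector. For the counts of markers that follow, 4.75% of all clusters rose and 5.14% fell with MBD-VP16, and 1.58% rose and 2.82% fell with Aire. Of 6 measured HEK 293 markers 2 rose with MBD-VP16, the neurofilament-type genes NEFM (2.40) and INA (1.14), and KRT18 fell in both comparisons. The summed levels of these 6 spanned 50.15 to 50.97 with MBD-VP16, 46.31 to 47.0 with Aire and 46.8 to 47.69 with vector. NEFM and INA were listed with HEK 293 and so were not counted among the neuron markers. Of 11 measured neuron markers 1 rose with MBD-VP16 (ELAVL3, 0.92) and none with Aire, and their summed levels spanned 58.8 to 60.4 with MBD-VP16, 59.2 to 60.1 with Aire and 58.9 to 59.3 with vector. Of 7 glia markers 4 rose with MBD-VP16 (AQP4, OLIG2, MBP and SOX10) and none with Aire, with sums of 37.9 to 38.9 with MBD-VP16, 36.8 to 37.7 with Aire and 35.7 to 37.1 with vector. No leukocyte, fibroblast or endothelial marker was called, and of 6 kidney tubule markers LRP2 rose in both comparisons. The part of these shifts in the protocadherin results was not tested.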

How the data were processed

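The authors deposited 1 log2 value for each cluster on each array; the submitters' processing notes name RMA, with no version. Per the labels' protocols, total RNA from columns went through whole-transcriptome amplification and biotin labelling. Arrays limit the precision by their number, 3 per group. The deposited comparison table gave symbols, positions, the authors' log2 fold changes and adjusted p-values (used as an alternative); its 9 further per-array columns were not used. Of 28829 clusters 25679 had values and were fitted together with limma 3.58.1 in R 4.3.3 (lmFit, eBayes), with all 9 arrays, group as the only term and Benjamini-Hochberg adjustment over all 25679; the median SE was 0.104. The fit was run on simulated data with planted changes, and only recovery of the largest planted changes was required. Those were larger than any protocadherin change here. The run therefore does not show how often changes of the reported sizes are found or called falsely. Genes were named by a written rule: all protocadherin members, called members of each list, and the chromatin regulators given by level. Members and lists were chosen with earlier results of these data known. Promoter windows were RefSeq's (GRCh38.p14), searched for exact letters on both strands.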

Additional observations from a re-analysis of the deposited data

How the results depend on the processing

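Leaving out 1 array at a time gave 7 to 14 called protocadherin clusters with MBD-VP16, 1 to 4 with Aire and 0 to 2 for MBD-VP16 against Aire, and over all clusters 1346 to 2406, 287 to 937 and 312 to 507. Deviations from the group means of same-numbered arrays of different groups correlated between -0.0686 and 0.135. Those of differently numbered arrays correlated between -0.147 and 0.0875. These few correlations show no clear pairing by replicate number, and they cannot settle whether the cultures were paired. With the replicate block, member calls were 14 with MBD-VP16 (PCDHB6 and PCDHB18 lost), 5 with Aire and 0 between them (PCDHB6 lost), and 597 of all clusters were called with Aire, against 1131 without the block. Fitting only the 2 groups compared gave 10, 2 and 2 member calls, the last being PCDHB7 and PCDHB16 and not PCDHB6, and 1469 (MBD-VP16) and 309 (Aire) calls over all clusters. Centring the arrays on their medians gave 10 member calls with MBD-VP16, 3 with Aire and 0 between them, lowered the share of higher calls to 27.6% from 48.1% with MBD-VP16 and to 23.4% from 35.9% with Aire, and turned PCDHB1 with MBD-VP16 to -0.0333. Alpha and gamma fold changes with MBD-VP16 were then 0.22 and 0.22, and under quantile normalization 0.24 and 0.24 with MBD-VP16 and 0.15 and 0.14 with Aire. For MBD-VP16 against Aire, quantile normalization left 0 member calls, while 1-symbol clusters and the authors' deposited table gave 2. A mean signal of at least 5 also left 0, but that filter removed PCDHB6 and PCDHB7, so neither was tested there. An intensity trend gave 3814 calls over all clusters with MBD-VP16 and 2308 with Aire, against 2539 and 1131, and the signal filter 1884 with Aire. Among 1-symbol clusters the non-clustered protocadherins had 2 calls and the promoter regulators 4 with MBD-VP16, and the cadherins 1 with Aire. These lists held 10, 23 and 23 measured genes, and the calls are in either direction. Of all 18688 clusters with 1 symbol, 2546 were called with MBD-VP16 and 1305 with Aire. Single genes whose sign turned without 1 array were PCDHB17 with Aire (-0.0067 to 0.30), PCDHB1 with MBD-VP16 (-0.05 to 0.12), and, for MBD-VP16 against Aire, PCDHB3 (-0.16 to 0.46), PCDHB13 (-0.14 to 0.0183) and PCDHB14 (-0.10 to 0.37). Within the comparison in which it was called, every called protocadherin cluster kept its direction in all settings run. The causes were not tested.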
